A study of Mus musculus with 2 samples.

Results

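The imprinted Dlk1-Dio3 domain of mouse chromosome 12 carries a dense array of miRNA genes at its distal end, from Mir379 to Mir410. Members were taken by position and annotation alone. They are the GENCODE M21 miRNA genes with a Mir name and no numbered copy suffix, on the plus strand of this stretch. The rule gave 38 of the 2202 miRNA genes in the tables. They lie between positions 109709060 and 109747960 of chromosome 12 (mm10), over 38.9 kb. The last of them, Mir3072, lies 4082 bases beyond Mir410.

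Both libraries were made from adrenal gland tissue of female B6CASTF1/J mice aged 4 days. The strain is a first-generation cross of C57BL/6J and CAST/EiJ. No treatment is named. The labels number them as biological replicates 1 and 2 of 1 group and name separate females, but give 1 donor identifier for both. Differences between them may therefore be technical in part, and the tests below measure only the spread of reads between these libraries. No other tissue, age or genotype was analysed here, so no condition is compared.

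Genes of the domain are expressed according to the parent they came from. Dlk1, Rtl1 and Dio3 are expressed from the paternal chromosome, and the noncoding RNAs Meg3, Rian and Mirg, with the miRNAs, from the maternal one. The miRNAs are thought to be cut from long transcripts that run through the array. In mice, loss of the Mir379 to Mir410 array is known to impair metabolic adaptation to birth. Several members, among them Mir134, Mir329 and Mir485, are best known from neurons. By mouse naming convention the mother's strain is written first, but the parental origin of the reads was not tested. A miRNA recognises its targets mainly through its seed, the bases from position 2 to position 8.

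RefSeq (GRCm38.p6) gave 71 mature sequences for the 38 members, and all 71 lay inside the annotated hairpins. They carried 65 distinct seeds. In 6 pairs of members a mature sequence of each had the same seed. These pairs are shown because they are the members that could recognise the same sites. Sequences run 5′ to 3′ with the seed in capitals.

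miR-379-5p: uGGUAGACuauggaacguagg
miR-1193-5p: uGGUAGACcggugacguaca
miR-379-3p: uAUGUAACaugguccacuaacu
miR-411-3p: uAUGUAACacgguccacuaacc
miR-1197-5p: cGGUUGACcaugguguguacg
miR-758-5p: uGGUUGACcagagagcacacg
miR-494-5p: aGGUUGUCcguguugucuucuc
miR-410-5p: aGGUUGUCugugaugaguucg
miR-376c-5p: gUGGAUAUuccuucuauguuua
miR-376b-5p: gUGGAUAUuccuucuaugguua
miR-453: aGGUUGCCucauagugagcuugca
miR-496a-5p: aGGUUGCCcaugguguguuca

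The 3p sequences of Mir379 and Mir411 differed at 2 of 22 positions. The 5p sequences of Mir376c and Mir376b differed at 1 of 22. A further 44 pairs of mature sequences had seeds that differed at 1 of 7 bases. The next 4 sequences are printed because these relatives were also alike outside the seed.

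miR-376a-3p: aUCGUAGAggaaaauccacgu
miR-376b-3p: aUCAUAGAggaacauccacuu
miR-300-3p: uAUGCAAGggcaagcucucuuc
miR-381-3p: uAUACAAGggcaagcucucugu

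The sequences of Mir376a and Mir376b, and those of Mir300 and Mir381, differed at 3 positions each, 1 of them in the seed. Seeds starting with the letters GGU (bases 2 to 4, read on the mature strand only) were found in 15 of the 71 member sequences, or 21.1%. Among 1667 mature sequences of all other genes in the table the share was 1.56%. This motif was chosen after the seeds were seen. Sharing a seed with any other gene was found for 32.4% of member sequences and for 32.0% of all 1738 sequences in the table. Reads were counted per hairpin gene, so every value below sums both arms, and reads cannot be ascribed to one of these sequences.

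The members took 378397 of 4960537 miRNA reads in replicate 1 and 435886 of 4506482 in replicate 2. That was 7.63% (95% Wilson interval 7.60 to 7.65) and 9.67% (9.65 to 9.70), a mean of 8.65% ± 1.45 (SD, n = 2). Such intervals cover counting error only. They may be too narrow even for that, because amplified reads lack molecular identifiers and do not each stand for a molecule. At least 10 reads in both libraries were held by 34 of the 38 members, which are called detected here. Over all miRNA genes, 377 were detected. The median detected member had 526 CPM (reads scaled to the library's miRNA total) in replicate 1 and 476 CPM in replicate 2. The medians over all 377 genes were 151 and 109 CPM. By mean CPM, 3 members were among the 25 most abundant miRNA genes and 13 among the 100 most abundant.

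**Figure D1:**
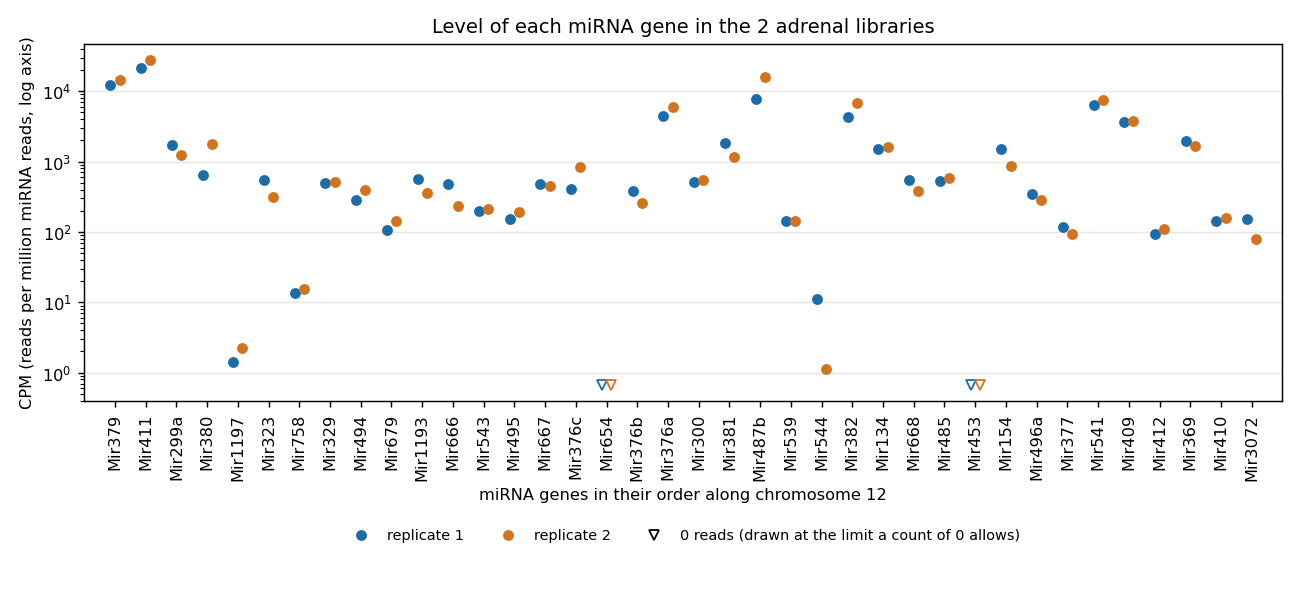
CPM of the 38 members on a log axis, in their order along the chromosome, with a blue point for replicate 1 and an orange point for replicate 2. Mir411 is highest in both libraries, and the open triangles mark Mir654 and Mir453, which had 0 reads.

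A handful of hairpins supplied most of this output. Mir411 had 107766 reads in replicate 1 and 124379 in replicate 2, or 21725 and 27600.02 CPM, and held 28.5% of the cluster's reads in each. Mir379, the first hairpin of the array, had 59959 and 64070 reads (12087 and 14217 CPM). Mir487b had 39066 and 72857 reads (7875 and 16167 CPM). Mir541 had 31280 and 34070 reads (6306 and 7560 CPM). These 4 genes together held 62.9% of the cluster's reads in replicate 1 and 67.8% in replicate 2. Sequences of the 5 leading genes not yet shown follow, as far as the RefSeq table holds them.

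miR-411-5p: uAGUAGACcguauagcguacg
miR-541-5p: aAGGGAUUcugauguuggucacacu
miR-541-3p: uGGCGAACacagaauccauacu
miR-487b-5p: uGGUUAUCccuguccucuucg
miR-382-5p: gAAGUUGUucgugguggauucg
miR-382-3p: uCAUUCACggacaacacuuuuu

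Mir382 followed with 21277 and 30994 reads (4289 and 6878 CPM). Mir376a, whose precursor is a known substrate of adenosine deaminases that act on RNA, had 22174 and 26834 reads (4470 and 5955 CPM).  Mir409 was nearly level, at 3651 and 3726 CPM. Mir369, known for binding AU-rich elements in the Tnf mRNA, had 1993 and 1658 CPM. The 8 highest genes by mean CPM held 81.8% of the cluster's reads in replicate 1 and 86.6% in replicate 2.

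Another 5 members had means above 1000 CPM. Mir134, a regulator of dendritic spine size through Limk1, had 1504 and 1619 CPM. Mir381 had 1827 and 1162 CPM. Mir299a had 1729 and 1257 CPM, Mir380 had 635 and 1769 CPM, and Mir154 had 1488 and 866 CPM. Another 20 detected members had means between 100 and 1000 CPM. The single detected member below 100 CPM was Mir758, with 68 and 69 reads (13.7 and 15.3 CPM). From Mir411 to Mir758 the detected members spanned a 1700-fold range.

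Mir654 and Mir453 had 0 reads in both libraries, which allows up to 0.605 CPM in replicate 1 and 0.666 CPM in replicate 2. Mir1197 had 7 and 10 reads. Mir544 had 55 reads in replicate 1 (11.1 CPM) and 5 in replicate 2 (1.11 CPM), and so missed the read minimum in 1 library only. Tested without the read minimum, Mir544 was higher in replicate 1 (9.13-fold, with a 95% exact interval of the log2 ratio from -4.87 to -1.88).

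Some pairs of members with the same seed differed widely in level, and others did not. Mir379 and Mir411 were both among the leading genes. Mir1193, which has the seed of miR-379-5p, had 561 and 358 CPM. Mir494 had 287 and 397 CPM and Mir410 had 141 and 158 CPM. Mir376c had 403 and 838 CPM and Mir376b had 379 and 256 CPM, both far below their neighbour Mir376a. Mir496a had 341 and 288 CPM, whereas Mir453 with the same seed had no read. Mir758 and Mir1197, which also share a seed, were both near the bottom of the range.

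None of the 71 mature sequences occurred in a hairpin at another locus. Runs of 18 bases shared with another hairpin were found for 5 members, all of them with other members (Mir411 with Mir758, and Mir376b with Mir376c and Mir487b). The tables keep multimapping reads in a row of their own, so the counts of these 5 are uncertain. They held 39.8% of the cluster's reads in replicate 1 and 46.4% in replicate 2, most of it from Mir411 and Mir487b. With all hairpins that share runs removed from members and total, the mean cluster share was 7.23%.

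**Figure D2:**
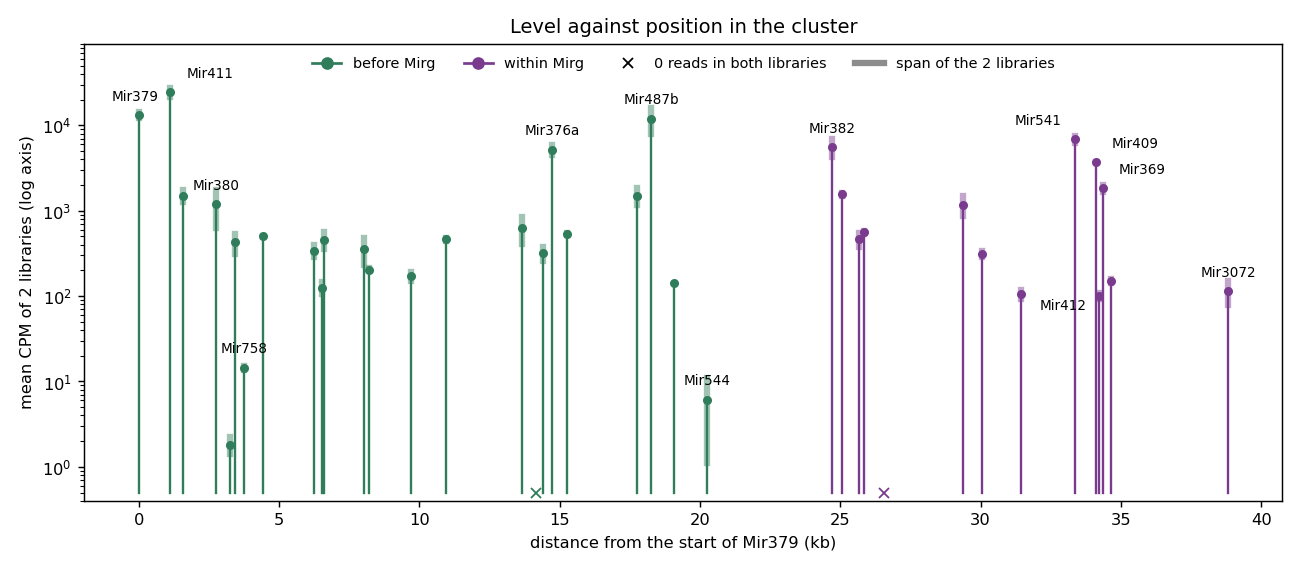
Mean CPM of the 2 libraries on a log axis against distance from the start of Mir379 in kb, green for members before the lncRNA gene Mirg and purple for those within it, with thick bars from the lower to the higher library. Some neighbouring hairpins lie far apart in level, such as Mir409, Mir412 and Mir369, which stand side by side.

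Order along the array and level were only weakly related. The first 24 members lie in no other annotated gene on their strand, and the last 14 lie within the lncRNA gene Mirg. Of those 14, 5 were intronic, 4 lay inside an annotated exon and 5 crossed an exon edge. Members before Mirg took 5.51% of the miRNA reads in replicate 1 and 7.27% in replicate 2. Those within Mirg took 2.12% and 2.40%. Their detected members had medians of mean CPM of 465 CPM before Mirg (21 genes) and 557 CPM within it (13 genes). Across the 34 detected members, Spearman's rho of order along the array with log2 mean CPM was -0.12. It was -0.20 for the mean GC content of the mature sequences, -0.11 for hairpin length and 0.09 for the folding energy per base of the hairpin (RNAfold). These describe members that share 2 libraries, a domain and in part a sequence origin.

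Close neighbours could lie far apart in level. Of 29 adjacent pairs of detected members, 11 were at least 4-fold apart in both libraries, among them 8 of the 13 pairs within 500 bases of each other. The order within the pair was the same in both libraries for 25 of the 29. Mir409 and Mir412 (the latter chosen after its values were seen) are separated by 52 bases. Their hairpins are printed with the mature arms in capitals, at chr12:109743158-109743236 and chr12:109743289-109743368 on the plus strand of mm10.

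Mir409: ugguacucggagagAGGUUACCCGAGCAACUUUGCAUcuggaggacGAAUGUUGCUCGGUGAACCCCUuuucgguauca
Mir412: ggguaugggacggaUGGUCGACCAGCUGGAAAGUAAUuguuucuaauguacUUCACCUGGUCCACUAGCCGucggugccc

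Mir409 had 39.4 times the CPM of Mir412 in replicate 1 (18113 against 460 reads) and 34.1 times in replicate 2 (16790 against 492). Mir369, only 49 bases further on, was again higher than Mir412, by 21.5-fold and 15.2-fold. Mir410 followed at 218 bases and lay 14.1-fold and 10.5-fold below Mir369. The step between Mir376b and Mir376a, 241 bases apart, was 11.8-fold in replicate 1 and 23.3-fold in replicate 2.

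The next comparison asks how closely the 2 libraries matched within the array. Ratios are of replicate 2 over replicate 1 after TMM scaling, and ratios of printed CPM are lower by 0.13 on the log2 scale. Each was tested with the exact binomial test (two-sided) on how its reads split, with Benjamini-Hochberg adjustment over the 377 detected genes. The test compares 2 libraries with counting error as the only error. Of 34 members, 19 were called higher in replicate 2 (55.9%), where 35.5% of all tested genes were called in that direction. Another 12 were called higher in replicate 1 (35.3%), against 32.6% of all genes, and 3 were not called. With the higher median level given above, members had narrower counting intervals than the typical gene. The median log2 ratio was 0.23 over the members and 0.04 over all 377 genes. Scaled by total miRNA reads these medians were 0.10 and -0.09, with 15 members called higher in replicate 2 and 13 in replicate 1. Of all 377 genes, 112 and 144 were called in these directions under that scaling. Without hairpins that share runs the medians were 0.11 and -0.03. Scaled to the cluster's own reads the split turned to 6 members higher in replicate 2 and 23 in replicate 1. Of all 377 genes, 49 and 235 were then called in these directions.

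**Figure D3:**
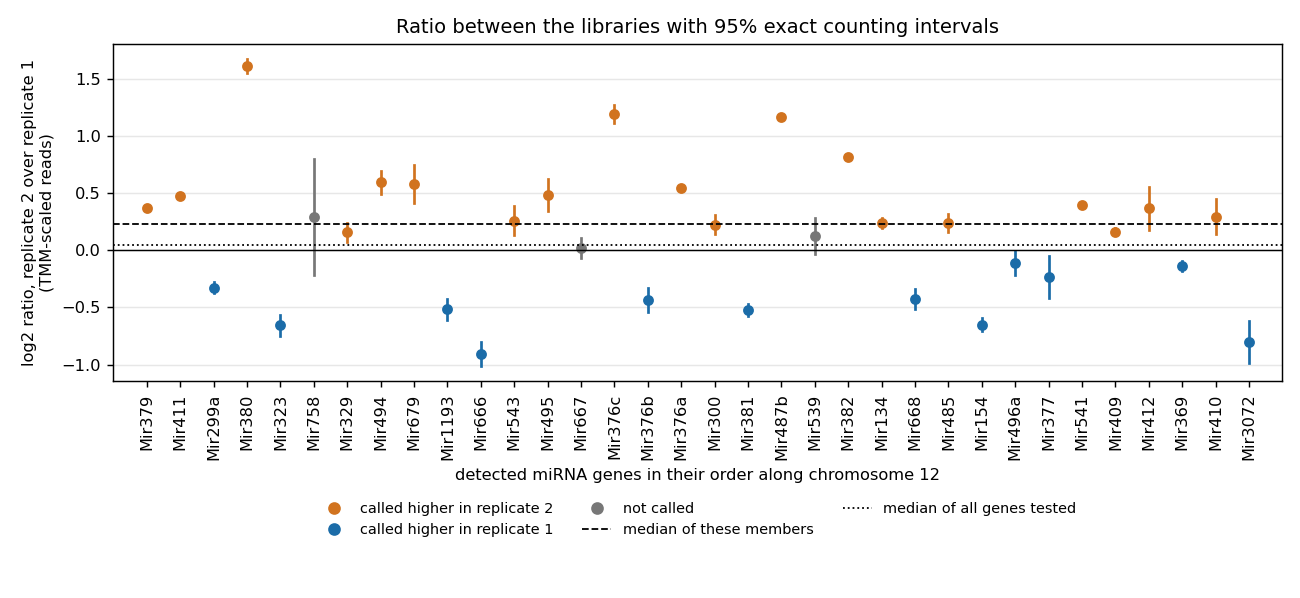
Log2 ratio of replicate 2 over replicate 1 for the 34 detected members in their order along the chromosome, with 95% exact counting intervals as bars and color for the call. Members with opposite calls stand next to each other, and Mir380, Mir376c and Mir487b lie at 1 or above.

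Towards replicate 2, Mir380 stood first, with 3151 and 7974 reads, 3.05-fold by scaled reads (log2 ratio 1.61, exact interval 1.55 to 1.67). Mir376c was 2.28-fold higher (1.19, interval 1.11 to 1.27), from 2000 and 3778 reads. Mir487b was 2.25-fold higher (1.17, interval 1.15 to 1.19). Mir382 was 1.76-fold and Mir494 1.51-fold higher. Only these first 3 of the 34 members reached 2-fold, or 8.82%, compared with 18.3% of all genes tested.

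Towards replicate 1 none of the 34 detected members reached 2-fold after TMM scaling. Scaled by total miRNA reads, Mir666 did (log2 ratio -1.035). Scaled to the cluster's own reads, Mir666, Mir3072, Mir323 and Mir154 did, and towards replicate 2 only Mir380. After TMM scaling Mir666 was 1.87-fold higher in replicate 1, with 2382 and 1056 reads (log2 ratio -0.90, exact interval -1.01 to -0.80). Mir3072, at the end of the array, was 1.75-fold higher with 749 and 356 reads (-0.80, interval -0.99 to -0.62). Mir323 was 1.58-fold, Mir154 1.57-fold and Mir381 1.44-fold higher. The sequences of the most shifted gene in each direction are shown because their seeds occur in no other gene of the table.

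miR-380-5p: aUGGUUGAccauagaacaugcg
miR-380-3p: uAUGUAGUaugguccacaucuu
miR-666-5p: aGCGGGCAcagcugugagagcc
miR-666-3p: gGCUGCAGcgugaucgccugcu

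Most of the abundant members had smaller ratios. Mir411 was 1.39-fold, Mir379 1.29-fold, Mir541 1.31-fold and Mir376a 1.46-fold higher in replicate 2. Mir134 (1.18-fold) and Mir409 (1.12-fold) were higher there too, though Mir409 had no call when scaled by total miRNA reads. Mir369 (1.10-fold) and Mir299a (1.26-fold) were higher in replicate 1. Related hairpins could go opposite ways. Mir376c and Mir376a were higher in replicate 2, whereas Mir376b, which lies between them, was 1.35-fold higher in replicate 1 (379 and 256 CPM).

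Mir1193 was 1.43-fold higher in replicate 1, while Mir379, with which it shares a seed, was higher in replicate 2. Mir496a was 1.08-fold higher in replicate 1, with 1693 and 1297 reads, and lost its call when genes with few reads were tested too. Mir410 was 1.22-fold higher in replicate 2, with 699 and 710 reads, and lost its call when scaled by total miRNA reads. Mir758 had no call (log2 ratio 0.29, exact interval -0.21 to 0.80).

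With the general spread of the pair as error, no member was called. edgeR's exact test, with the common dispersion of these 2 libraries (a biological coefficient of variation of 0.433), called 0 of the 34 members, 0 at an unadjusted p under 0.05, and 7 of the 377 genes. The differences between the 2 libraries set this dispersion themselves. A gene with a typical difference therefore could not be called. The lowest unadjusted p of a member was 0.0825, for Mir380 (edgeR exact test). Ratios of the members had an SD of 0.58 on the log2 scale, compared with 0.97 over all genes tested. The median absolute log2 ratio differed less, at 0.41 for the members and 0.45 for all genes tested. Within 1.5-fold lay 25 of the 34 members (73.5%) and 62.6% of all genes. Across the members Pearson's r of log2(CPM + 1) between libraries was 0.973 and Spearman's rho was 0.949. Over all 377 genes r was 0.965 and rho was 0.962, so by rank the members did not match more closely. Genes are not independent replicates, and no test of these differences in spread was made.

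**Figure D4:**
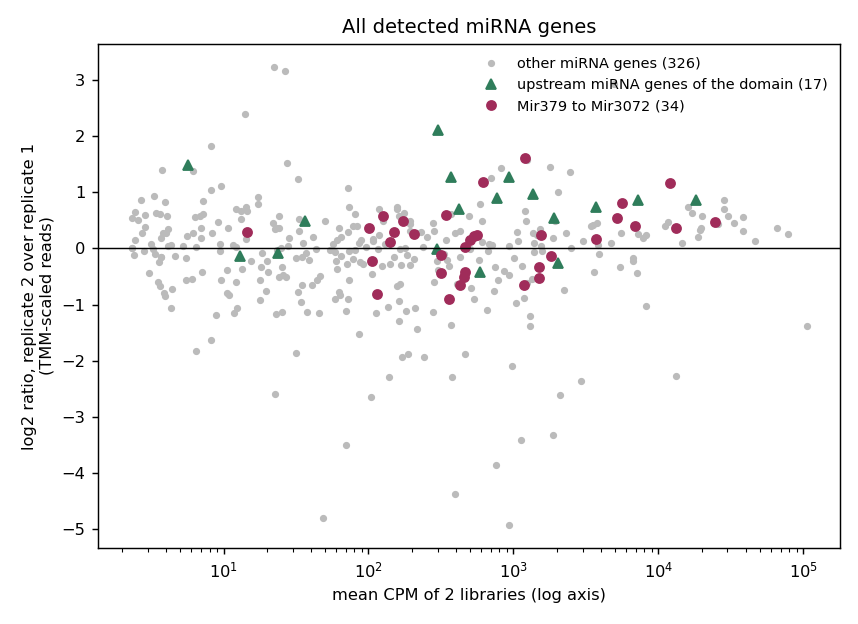
Log2 ratio of replicate 2 over replicate 1 against mean CPM on a log axis for the 377 detected miRNA genes, with the 34 members in dark red, 17 upstream genes of the same domain as green triangles and the remaining genes in grey. Members lie between -0.90 and 1.61, within a range of -4.92 to 3.23 over all genes.

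Upstream in the same domain lie the miRNA genes near Meg3, Rtl1 and Rian. Of 20 such genes, 17 were detected, 12 were called higher in replicate 2 and 2 in replicate 1, with a median log2 ratio of 0.74. They took 2.99% and 4.65% of the miRNA reads. For each upstream read there were 2.55 reads of the array in replicate 1 and 2.08 in replicate 2. The difference between these 2 parts of the domain was not tested against a spread between animals. Of 5 other imprinted miRNA genes, 3 were called higher in replicate 2 and none in replicate 1. Over all tested genes the shares called were 35.5% and 32.6%. Mir335 had the highest level, at 16932 and 23008 CPM (log2 ratio 0.57). Mir483 had the largest ratio (1.43, at 476 and 1172 CPM), and Mir296 was called at only 0.09.

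Markers of other cell types moved between the libraries as well, and no list of them summed to 0 in either. All 5 miR-200 family genes of epithelial cells were called higher in replicate 1, at 4224 CPM in sum there and 192 CPM in replicate 2. All 3 kidney genes (375 and 145 CPM) and both erythroid genes (1039 and 259 CPM) were also called higher in replicate 1. The endothelial genes Mir126a and Mir139 summed to 171026 and 74690 CPM, with Mir126a higher in replicate 1 and Mir139 in replicate 2. Of 5 striated muscle genes 3 were detected and called higher in replicate 2 (Mir206, Mir208b and Mir499). Mir133b and Mir1b did not have 10 reads in both libraries and were not tested. By raw reads they did not both lean towards replicate 2. The sums of the 5 genes, 1253 and 8686 CPM, came almost wholly from Mir206. The mesenchymal genes Mir143 and Mir145a (26511 and 36937 CPM), both leukocyte genes (946 and 1249 CPM) and Mir122 of liver (1449 and 2638 CPM) were called higher in replicate 2. The 3 neuroendocrine genes, Mir375 foremost, summed to 40471 and 45933 CPM, and 2 were called higher in replicate 2. The tables hold miRNA genes alone, so steroid enzyme genes could not be used to check the adrenal label. In tissue, fewer cells of a type and less RNA per cell cannot be told apart, and the part of these markers in the ratios of the array was not tested. With Mir126a left out of the total, the mean share of the array was 9.64%.

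Relations of the ratios with sequence were weak to moderate. Across the 34 members Spearman's rho of the log2 ratio was -0.31 with mature GC content and 0.43 with folding energy per base, where a higher value means a less stable hairpin. With order along the array it was -0.18 and with log2 mean CPM 0.24. These are descriptions of 1 pair of libraries, in which members share sequence and depth.

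Strand matters for 5 members that overlap a miRNA gene on the other strand: Mir299a, Mir380, Mir376a, Mir539 and Mir409. They held 13.9% of the cluster's reads in replicate 1 and 13.3% in replicate 2. In the count column that ignores strand they had 0 reads, since reads on such overlaps are set aside there as ambiguous. Counted on either strand, 29 members would have been detected and the mean share would have been 8.84%. That share is of a smaller total, 3942397 reads in replicate 1 and 4009427 in replicate 2. Ambiguous reads of genes outside the array are missing from it too.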

How the data were processed

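MicroRNA-seq libraries of 2 adrenal samples of 1 group were analysed. The authors deposited raw, whole-number read counts per miRNA gene, in 3 columns without a header. Assembly mm10 is named per the labels and annotation M21 in the deposited file descriptions. The aligner and the counting tool are not named in the sources used here. The columns were read from the values as either strand, annotated strand and opposite strand, and the annotated strand was used. The 4 leading rows name no gene and stayed out of totals: 25.8% and 26.1% of all reads were unmapped, 25.9% and 27.8% were multimapping, and 5.96% and 6.24% lay outside miRNA genes. Total miRNA reads were 4960537 and 4506482.

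All 2202 identifiers matched GENCODE M21, of the same build. CPM used total miRNA reads. Ratios used TMM factors of edgeR 4.0.16 (1.05 and 0.956). Genes with at least 10 reads in both libraries were tested by exact binomial tests (scipy 1.17.1) with Benjamini-Hochberg adjustment, called under 0.05. The test was checked on simulated counts with counting error alone, so that check does not cover any wider spread between libraries. Alternatives were total reads, DESeq2 1.42.0 size factors, cluster reads, other minimums, either strand, shared runs left out and edgeR's exact test. Hairpin energies came from RNAfold 2.7.2, sequences from RefSeq (GRCm38.p6).

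Members, lists and tests were chosen with earlier results of these data known. Named members were those with a mean of at least 1000 CPM, the 5 most extreme called ratios in each direction, those sharing a seed with another member, those under the read minimum and both ends of the array. Other members named for a neighbour, a strand or a changed sign were chosen after their values were seen.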

Additional observations from a re-analysis of the deposited data

Results flagged for a closer look

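Reads on the strand opposite to a member are outside the main measurement. Mir299a had 7 such reads in replicate 1 and 5 in replicate 2, above the 3 reads that a count of 0 allows, beside 8576 and 5664 reads on its own strand. The tables assign these reads to Mir299b, annotated on the other strand of the same hairpin. No other member had an opposite-strand read in either library.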

How the results depend on the processing

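The mean share of the array in miRNA reads ran from 7.63% to 9.67% with 1 replicate left out. Taken over all reads of the library it was 3.55%, a change of denominator. The number of detected members ran from 29 to 36 over all minimums, strands and single libraries. DESeq2 size factors gave the same 12 and 19 calls for replicates 1 and 2 as counts, beside 131 and 125 over all 377 genes. Each of the 34 members kept its call, while Mir667, which had no call, changed sign. Total miRNA reads gave 13 and 15 calls (144 and 112 over all 377 genes) and a median log2 ratio of 0.10. Leaving out hairpins with shared runs gave a median of 0.11. Scaling to the reads of the array itself gave 23 and 6 calls and a median of -0.24. Over all 377 genes it gave 235 and 49 calls and a median of -0.43. By its construction this scaling sets the array's summed reads level, and 13 members changed sign. The 10 of them that had been called higher in replicate 2 were Mir379 (-0.11), Mir329 (-0.32), Mir543 (-0.21), Mir300 (-0.25), Mir134 (-0.24), Mir485 (-0.24), Mir541 (-0.081), Mir409 (-0.31), Mir412 (-0.11) and Mir410 (-0.18). The other 3, Mir758 (-0.18), Mir667 (-0.45) and Mir539 (-0.35), had no call before, and Mir667 and Mir539 were then called higher in replicate 1. With edgeR's exact test the calls fell to 0 and 0. Members with few reads, such as Mir758, could show only large differences at this depth.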
